A study of Mus musculus with 8 samples.

Results

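The histone genes of whole mouse pituitary were described in RNA from young and old animals that the labels call poly(A) RNA. The members were the 91 of 49585 listed genes whose symbols begin with Hist and a cluster number, or with H1f, H2af or H3f. Of these, 70 were clustered histone genes and 21 were variant histone genes. By their symbols, the clustered genes belong to the Hist1 cluster on chromosome 13 (56 genes), the Hist2 cluster on chromosome 3 (10 genes), the Hist3 cluster on chromosome 11 (3 genes) and the Hist4 locus on chromosome 6 (1 gene). The pseudogene Hist1h2al, at chr13:51202727-51203065, carries the symbol but lies apart from the other Hist1 genes.

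The mice were wild-type C57BL/6 animals, 2 to 3 months old in the young group and 18 to 24 months old in the old group, with 4 libraries at each age and no other treatment given in the labels. By the study's account, blood was removed by perfusion before the whole gland was taken for mRNA sequencing. Every library held between 15042321 and 20429604 counted fragments. How far the name poly(A) RNA holds was not tested, and 3 genes at the ribosomal RNA repeat took 33.8% to 40.3% of all fragments. Nothing in the labels ties a library to 1 animal, and the tests therefore weigh a difference against the spread among these libraries, which may be technical. The pituitary hormone genes, taken as the check of the tissue, made up 9.05% to 14.1% of fragments in every library.

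Histones are the proteins around which DNA is wound: H2A, H2B, H3 and H4 form the core and H1 binds the linker. The clustered genes supply histones mainly when DNA is replicated, and their mRNAs usually end at a stem-loop in place of a poly(A) tail, with stem-loop binding protein (Slbp) holding that end. The variant genes, such as H3f3a and H2afz, are transcribed outside S phase too, carry ordinary poly(A) tails, and supply histones to cells that do not divide. Some clustered genes can also give polyadenylated mRNAs, in particular in differentiated cells, which are the kind that a poly(A) selection retains.

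The stem-loop sequences are shown first because most clustered genes and few variants hold one. A 16-base pattern of the stem-loop, which opens with GG, closes with CC, has CTT and AG on either side of the loop and a T within it and leaves the other bases free, was looked for on the sense strand after the stop codon in the GENCODE M21 transcripts (GRCm38). The pattern stood in 46 of 70 clustered genes and in 1 of 21 variants, H2afx, the gene of the H2A.X histone that is phosphorylated at DNA breaks. Anywhere in their transcripts, 201 of 55450 annotated genes (0.363%) held the pattern. It began 21 to 58 bases after the stop codon, with a median of 31. The matched bases are in capitals below, with 5 bases on either side, each read 5′ to 3′ on the gene's strand.
Hist3h2ba, chr11:58949349-58949364, plus strand: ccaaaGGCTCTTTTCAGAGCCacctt
Hist3h2a, chr11:58955172-58955187, plus strand: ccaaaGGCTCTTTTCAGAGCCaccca
Hist1h1c, chr13:23739512-23739527, plus strand: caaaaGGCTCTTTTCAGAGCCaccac
Hist1h2bb, chr13:23747203-23747218, plus strand: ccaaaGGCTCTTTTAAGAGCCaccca
Hist1h4h, chr13:23531458-23531473, plus strand: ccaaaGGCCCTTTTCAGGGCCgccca
H2afx, chr9:44335240-44335255, plus strand: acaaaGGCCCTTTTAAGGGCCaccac

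The stem differed by family. All 34 clustered genes outside H4 that held the pattern began with GGCTC, as in Hist3h2ba. Of the 12 H4 genes with a match, 10 began with GGCCC and 2 with GGTCC, and H2afx had the GGCCC form. The commonest 16 bases, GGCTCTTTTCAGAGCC, were shared by 26 genes of the H1, H2A, H2B and H3 families.

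Levels were compared between genes as FPKM, fragments scaled to the length of the counted exons and to the library total, so that gene length is divided out. In these libraries labelled poly(A), variant and clustered genes contributed about equally to the summed histone FPKM. Clustered mRNAs usually lack a tail, so these sums need not follow their share of all histone mRNA. The variants summed to 232 ± 15.6 FPKM in young and 237 ± 15.9 in old pituitary (mean ± SD, n = 4 each). The clustered genes summed to 201 ± 16.6 FPKM in young and 211 ± 21.9 in old, which was 44.7% to 48.8% of the histone total in the 8 libraries. Young and old libraries overlapped for both sums, and the direction of each small difference turned when the libraries were rescaled.

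Among the variants, H3f3b was highest, followed by H1f0, H2afz and H3f3a. H3f3b, 1 of 2 genes for the replacement histone H3.3, had 60.4, 69.3, 82.0 and 60.8 FPKM in the young libraries and 61.1, 62.2, 67.6 and 78.8 in the old. H3f3a, the other H3.3 gene, had 29.4 ± 2.43 FPKM in young and 31.3 ± 2.62 in old. H3f3b supplied 65.3% to 73.6% of the summed level of both genes in every library. The clustered H3 genes, by contrast, made up 9.92% to 12.8% of all H3 FPKM, which again need not follow their share of all H3 mRNA.

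H1f0, the linker histone H1.0 that accumulates in cells that have stopped dividing, had 41.6 ± 3.33 FPKM in young and 38.8 ± 4.32 in old. It made up 43.6% to 54.6% of the H1 total. H2afz and H2afv, which encode the H2A.Z histones found near transcription start sites, together made up 35.0% to 42.0% of the H2A total. H2afz had 29.3, 28.6, 35.3 and 35.0 FPKM in the young libraries and 32.8, 36.3, 36.0 and 35.9 in the old, with both ages overlapping. The macroH2A genes H2afy and H2afy2, whose proteins carry a large extra domain, averaged 11.2 and 7.41 FPKM in young and 11.6 and 8.89 in old. H2afx, H2afj and H1fx averaged between 6.81 and 10.3 FPKM at both ages. The remaining variants averaging 1 FPKM or more were annotated pseudogenes: H3f3a-ps1 (3.41 and 3.95 FPKM), H3f3c (1.35 and 2.13) and H3f3a-ps2 (1.49 and 1.63). Between 54.3% and 82.0% of the 50-base stretches of these pseudogenes also occur in another gene, so their fragments cannot be assigned with certainty.

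**Figure D1:**
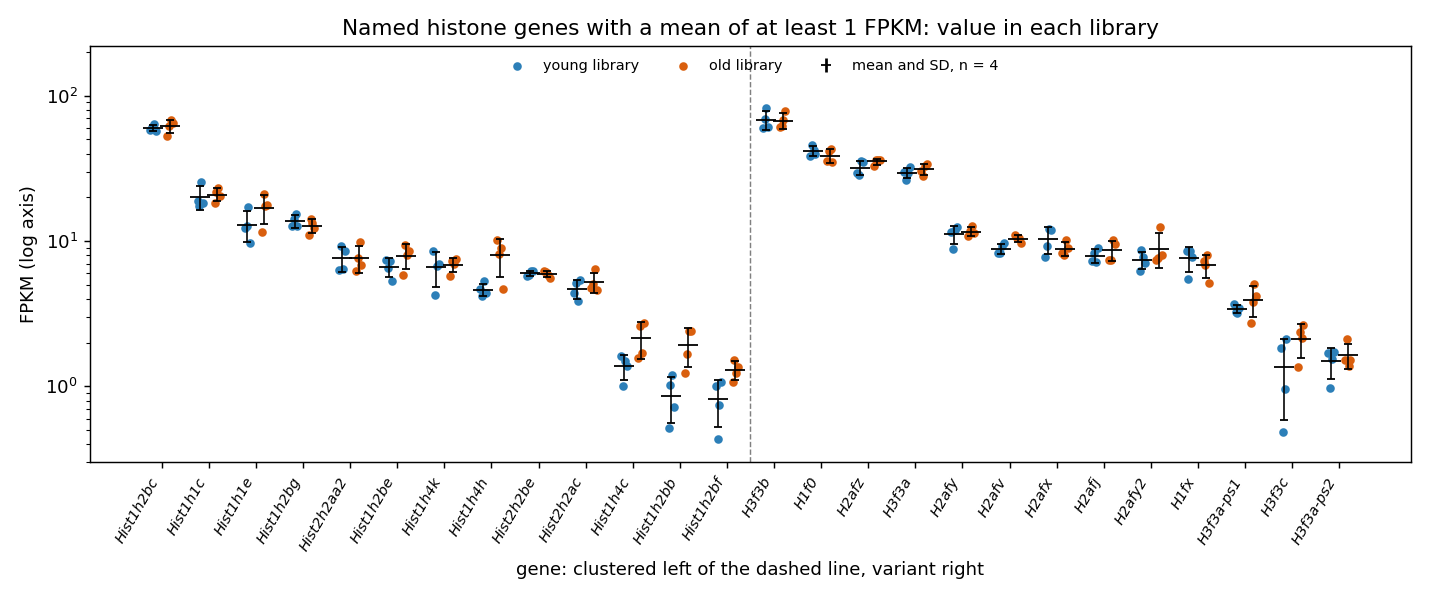
FPKM of the named histone genes averaging 1 FPKM or more, on a log axis, in each of 4 young (blue) and 4 old (orange) libraries, with the mean and SD of each age; clustered genes stand left of the dashed line and variants right. Hist1h2bc and H3f3b lead their groups, and young and old points overlap for all but Hist1h2bb, Hist1h2bf and H2afv.

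The clustered genes were uneven. Of the 70, 32 had a mean of at least 1 FPKM and 4 had at least 10. Hist1h2bc, an H2B gene, had 58.2, 61.1, 63.4 and 56.9 FPKM in the young libraries and 52.7, 62.0, 67.8 and 64.8 in the old. It alone gave 28.1% to 31.0% of the clustered total in every library and 61.7% to 66.3% of the clustered H2B total. The linker histone genes Hist1h1c and Hist1h1e followed, at 20.02 and 13.0 FPKM in young and 20.9 and 16.9 in old, and then Hist1h2bg at 13.7 and 12.7. These 4 genes held 51.4% to 55.0% of the clustered total. The next 6 were Hist2h2aa2, Hist1h2be, Hist1h4k, Hist1h4h, Hist2h2be and Hist2h2ac, which averaged between 4.64 and 7.99 FPKM at either age. The value of Hist2h2aa2 is uncertain, since 100% of its 50-base stretches occur in another gene, such as its copy Hist2h2aa1, and an annotated antisense gene lies opposite its whole length. Hist1h1e and Hist1h2be overlap each other on the same strand over 496 bases, so their split is uncertain. More than 50% of the 50-base stretches were shared with another gene in 39 of the 91 members.

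By their medians, clustered genes whose stem-loop transcripts are annotated to run on past it had higher levels than those whose transcripts end at it. The classes also differ in sequence sharing, with a median of 60.4% of 50-base stretches shared with another gene where the transcript ends at the stem-loop and 24.6% where it runs on; the part of sharing in the levels was not tested. In 23 clustered genes the longest annotated transcript that holds the pattern stopped within 100 bases of it, among them Hist1h2bp, which has another, spliced transcript without the pattern; their median was 0.455 FPKM and 8 had a mean of at least 1. In another 23 it ran more than 100 bases past the stem-loop; their median was 1.65 FPKM and 19 had a mean of at least 1. Hist1h1c, at the head of that class, runs on for 840 bases after the stem-loop. Neither Hist1h2bc nor Hist2h2be holds the pattern in its annotated transcript, which ends 742 and 2192 bases after the stop codon, and in Hist1h2bc that end lies in a second exon. A further 15 genes had under 10 annotated bases after the stop codon, so the pattern could not be looked for; their median was 0.323 FPKM, and Hist1h4k was the highest at 6.77. These values are a description without a test. The lengths behind the deposited FPKM differed from GENCODE M21 for 24 members, among them Hist1h2bc (736 bases against 1156) and Hist1h1e (748 against 1930), so fragments in part of these extensions were not counted. Only 10 of the 23 genes that run past the stem-loop had the annotated length.

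**Figure D2:**
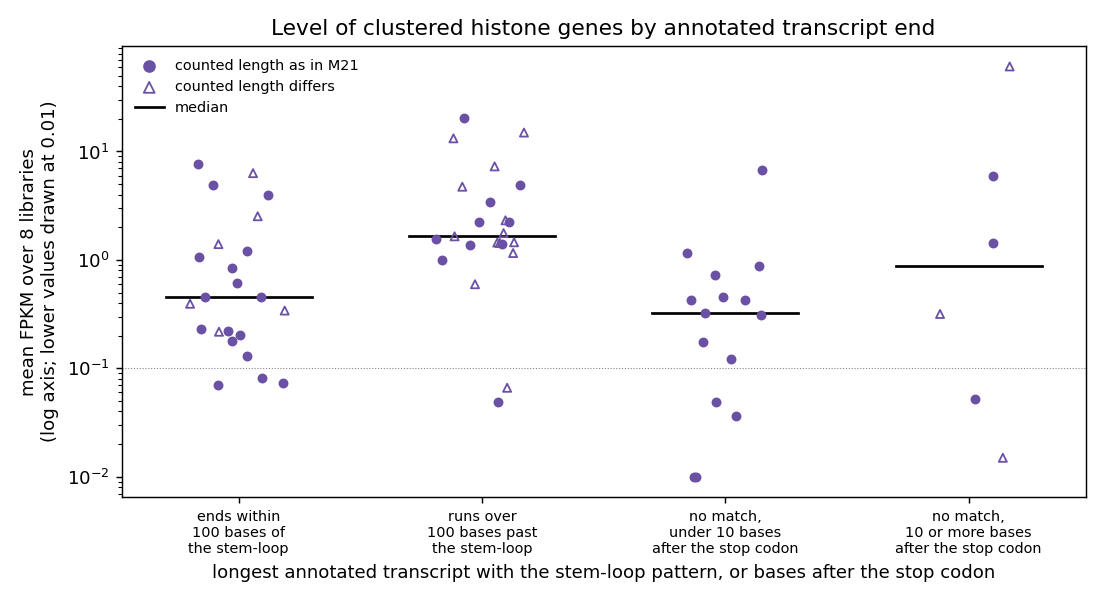
Mean FPKM over the 8 libraries (log axis) of the clustered histone genes, grouped by the longest GENCODE M21 transcript that holds the pattern, or, without a match, by the bases after the stop codon; filled circles have the annotated length in the deposited values, open triangles a different one, and bars are medians. Genes that run over 100 bases past the stem-loop have a median of 1.65 FPKM against 0.455 for those that end within 100 bases of it.

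Old and young pituitary were then compared to ask whether histone mRNAs differ with age. Hist3h2ba, an H2B gene of the Hist3 cluster (chr11:58948920-58949533, plus strand, 1 exon), fell in old pituitary, and it was the only member of 75 tested to pass the threshold. It had 1.99, 1.84, 1.59 and 1.34 FPKM in the young libraries and 0.405, 0.264, 0.169 and 0.372 in the old. Every old library lay below every young one, and the mean of young was 5.58 times that of old. On the log2(FPKM + 0.1) scale the difference was -2.18 (SE 0.22, 95% confidence interval -2.70 to -1.66, limma, Benjamini-Hochberg adjusted p = 0.0107). The levels rest on few fragments, 21, 17, 20 and 15 in the young libraries and 4, 3, 2 and 4 in the old. Their variance among libraries of an age averaged 0.48 of that expected from counting alone, so the limma interval may be too narrow. Its mean over all libraries was just under 1 FPKM (0.996), so a filter at a mean of 1 FPKM left it untested. Fewer cells of a type and less RNA per cell cannot be told apart in these bulk samples.

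Of the 75 members tested, none was called higher and 1 was called lower in old pituitary. Beside this, 1.86% of all 23498 genes tested were called higher and 0.472% lower. Among so few members these counts do not set the histone genes apart from all genes. A second model, voom on fragments computed back from the FPKM, also called Hist3h2ba alone (adjusted p = 0.00322), against 6.07% of all genes higher and 1.51% lower. At an unadjusted p under 0.05, 7 members were higher and 1 lower, beside 18.0% and 3.79% of all genes. Every old library lay above every young one for 3 members and below for 1, beside 13.4% and 2.06% of all genes. The median log2 difference was 0.0045 over the 58 clustered genes tested and 0.13 over the 17 variants, beside 0.15 over all genes tested; with 3 other scalings the median of all genes was 0.0075 to 0.023. Hist3h2ba was at -2.30 to -2.29 with these other scalings, with adjusted p of 0.0113 to 0.0119.

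**Figure D3:**
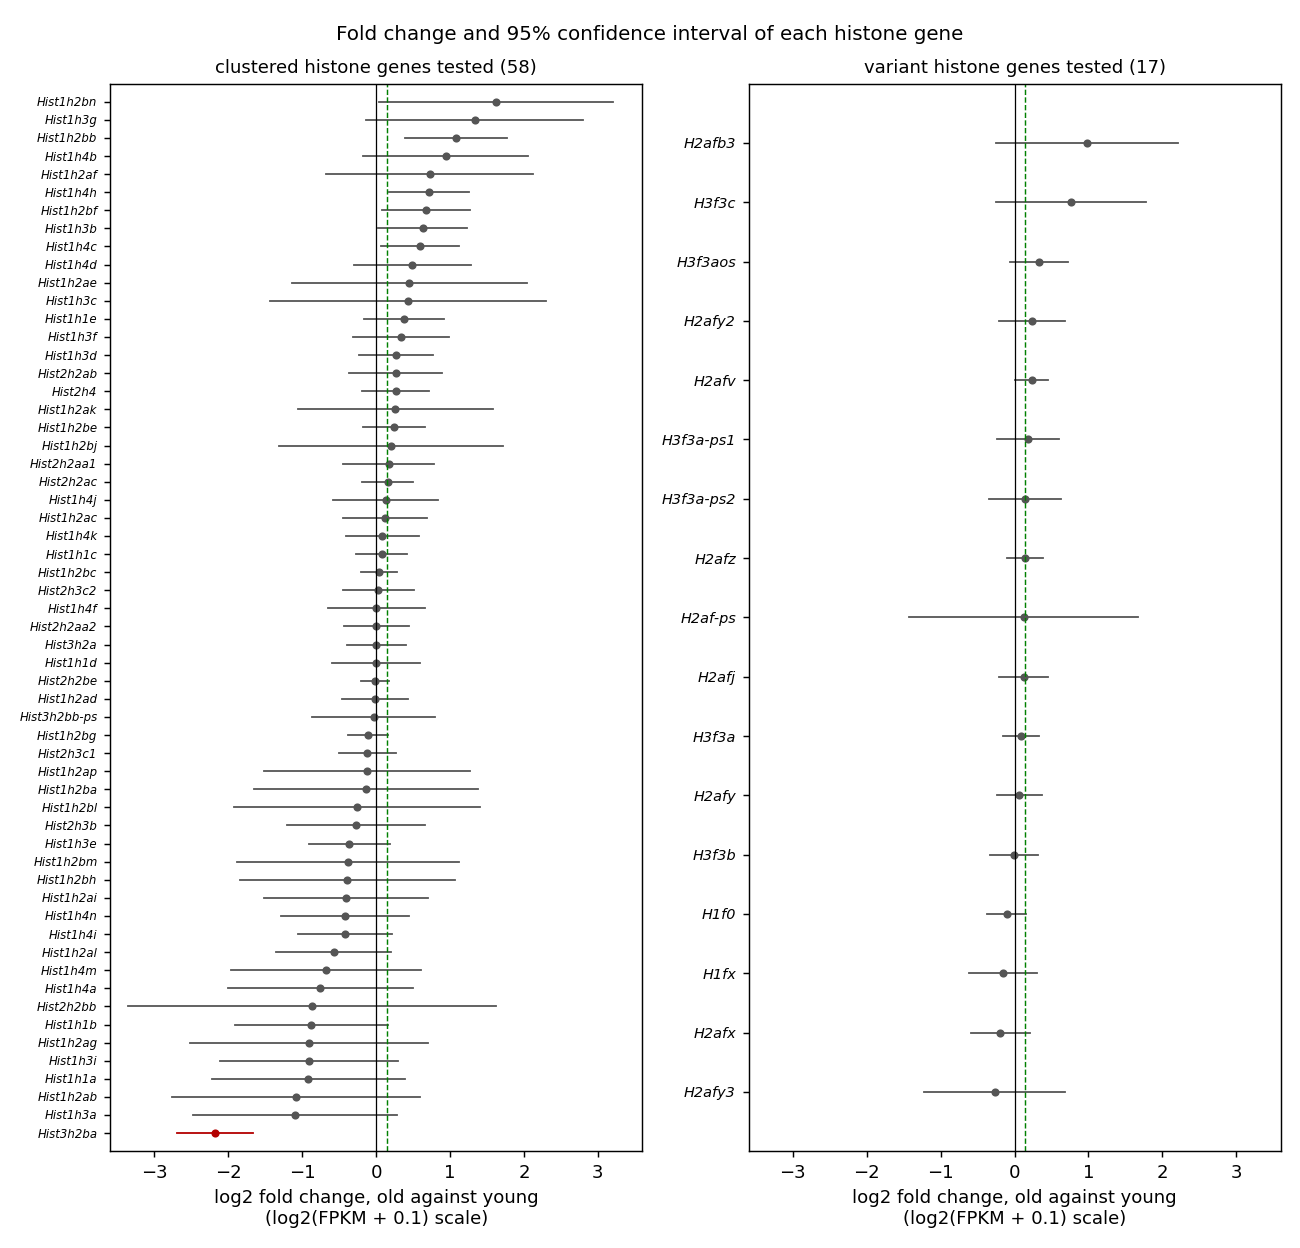
Log2 difference of old against young pituitary on the log2(FPKM + 0.1) scale with its 95% confidence interval for the 58 clustered and 17 variant histone genes tested; the dashed green line is the median of all genes tested (0.15). Hist3h2ba (red) is the only gene past the adjusted threshold, at -2.18.

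Its neighbours gave no call. Hist3h2a, the H2A gene that starts 5152 bases past the end of Hist3h2ba, had 4.20, 3.69, 6.11 and 5.66 FPKM in the young libraries and 4.72, 5.07, 5.01 and 4.53 in the old. Both ages overlapped, and the difference was 0.0036 (95% confidence interval -0.39 to 0.40, adjusted p = 0.994). Hist3h2ba therefore went from 19.1% to 33.3% of the summed FPKM of both genes in the young libraries to 3.27% to 7.90% in the old. The pseudogene Hist3h2bb-ps, which lies between them and shares 50-base stretches with Hist3h2ba (22.1% of the stretches of Hist3h2ba are shared), had 9 fragments in all at each age. Within 40000 bases on either side, 8 of 10 annotated genes were tested, and the other 7 did not pass, among them the ubiquitin ligase genes Rnf187 (0.09, adjusted p = 0.729), Trim17 (0.14, adjusted p = 0.657) and Trim11 (0.29, adjusted p = 0.193). Hist3h2a overlaps Trim17 on the same strand over 708 bases, so these 2 values are not separate measurements. The annotated miRNA gene Gm44313, 1 of the 7, lies opposite Hist3h2a over its whole 138 bases, so its value may not be separate either.

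**Figure D4:**
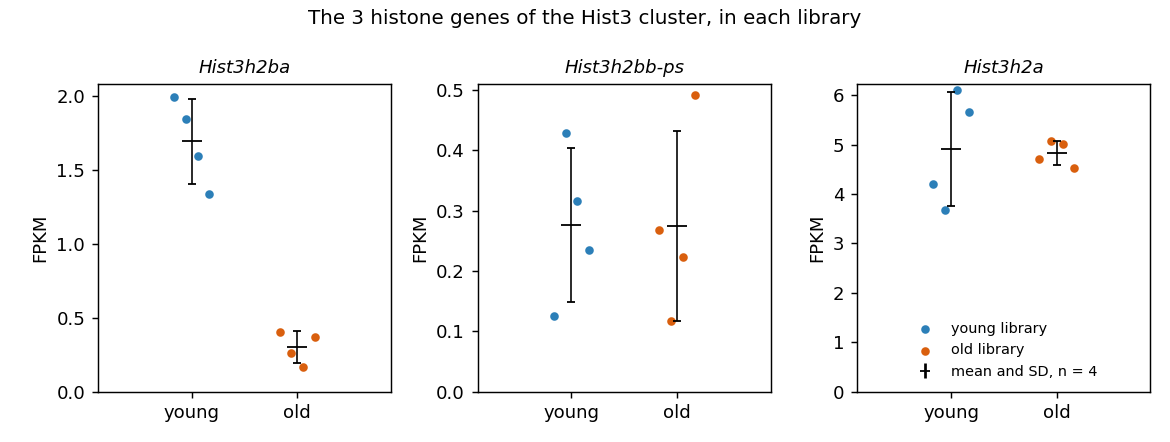
FPKM of Hist3h2ba, Hist3h2bb-ps and Hist3h2a in each young (blue) and old (orange) library, with the mean and SD of each age (n = 4) and a separate axis from 0 for each gene. The old libraries lie between 0.169 and 0.405 FPKM for Hist3h2ba, below all young ones, and overlap the young libraries for the other genes.

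The start regions of Hist3h2ba and Hist3h2a are shown because the genes lie side by side and gave different values. They are RefSeq sequences (GRCm38.p6), 250 bases before to 50 after the annotated start, in lower case with 3 motifs in capitals where they occur on either strand: the TATA box as TATAAA, the CCAAT box, and the octamer as ATTTGCAT.
Hist3h2ba, chr11:58948661-58948960, plus strand: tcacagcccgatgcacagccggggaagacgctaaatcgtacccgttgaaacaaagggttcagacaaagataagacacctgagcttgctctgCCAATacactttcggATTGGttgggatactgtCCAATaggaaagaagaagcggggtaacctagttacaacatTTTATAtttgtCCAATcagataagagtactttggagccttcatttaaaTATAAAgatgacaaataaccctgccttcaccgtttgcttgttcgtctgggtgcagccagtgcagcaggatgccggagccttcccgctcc
Hist3h2a, chr11:58954435-58954734, plus strand: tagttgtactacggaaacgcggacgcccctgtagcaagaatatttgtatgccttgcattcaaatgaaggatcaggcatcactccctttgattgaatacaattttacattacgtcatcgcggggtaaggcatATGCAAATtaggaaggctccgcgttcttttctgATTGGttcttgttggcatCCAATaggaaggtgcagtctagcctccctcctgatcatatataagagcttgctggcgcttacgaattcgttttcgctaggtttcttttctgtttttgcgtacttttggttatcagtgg
Hist3h2ba held 2 matches to TATAAA and 4 to CCAAT and none to ATTTGCAT. Hist3h2a held 2 matches to CCAAT and 1 to ATTTGCAT and none to TATAAA. Only this exact spelling was searched, so no match does not mean that a TATA box is absent. Hist3h2a holds the similar letters tatataag before its start. Of the 77 members with such a sequence, TATAAA stood in 56.5% of 62 clustered genes and 6.67% of 15 variants, beside 13.6% of all 32851 start regions. CCAAT stood in every clustered H1, H2A, H2B and H3 gene with such a sequence and in 25% of the 12 H4 genes, beside 37.4% of all. ATTTGCAT stood in 38.9% of H2A and 37.5% of H2B clustered genes and in no clustered H1, H3 or H4 gene, beside 1.74% of all. A match is a description of the letters and not of binding.

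Several clustered genes had higher values in old pituitary without passing the threshold. Hist1h2bb had 0.515, 1.03, 1.19 and 0.726 FPKM in the young libraries and 1.24, 1.68, 2.41 and 2.40 in the old, from 28 and 63 fragments in all. The ages did not overlap, and the difference was 1.08 (SE 0.30, adjusted p = 0.0995). Hist1h2bf, also an H2B gene, had 0.813 ± 0.290 FPKM in young and 1.30 ± 0.190 in old (adjusted p = 0.186), and its ages did not overlap.

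Hist1h4h, a gene for histone H4, had 4.67, 4.22, 5.28 and 4.39 FPKM in the young libraries and 10.1, 8.12, 8.995 and 4.71 in the old. In old replicates 1 to 3 it was well above all young libraries, while old replicate 4 lay among them. The difference was 0.72 (SE 0.23, adjusted p = 0.138), and without old replicate 4 it was 0.95 with an adjusted p of 0.0332. Leaving out the lowest old library necessarily raises the difference, so this adjusted p cannot count as support for a change. With any other library left out, Hist1h4h was not called. Its share of the H4 total was 15.5% to 19.4% in young and 17.8% to 35.9% in old libraries. Hist1h4c (1.38 and 2.16 FPKM, adjusted p = 0.185) and Hist1h3b (0.134 and 0.276 FPKM, adjusted p = 0.212) completed the 5 higher clustered genes with the smallest p-values. Hist1h4c rests on 39 and 61 fragments in all, and Hist1h3b on only 6 and 12.

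Other clustered genes had lower values in old pituitary, again without a call, and 11 of the 32 averaging 1 FPKM or more were among them. After Hist3h2ba, the smallest p-values belonged to the linker histone gene Hist1h1b (0.433 ± 0.239 FPKM in young and 0.193 ± 0.139 in old, adjusted p = 0.299) and to Hist1h3a (0.632 ± 0.300 and 0.278 ± 0.203, adjusted p = 0.321). Hist1h3i and the pseudogene Hist1h2al had 0.419 and 0.963 FPKM in young and 0.227 and 0.601 in old, with adjusted p of 0.348 and 0.354. All 4 rest on at most 25 fragments over the 4 libraries of an age, and the ages overlapped in each.

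On the scaling of the deposited FPKM, abundant histone genes were measured closely enough to bound a change. The intervals do not include uncertainty in the scaling between libraries. The median difference over all genes tested was 0.15 on this scaling and 0.0075 to 0.023 with the other scalings. These bounds therefore hold for the deposited scaling only. The difference of Hist1h2bc was 0.04 (95% confidence interval -0.21 to 0.29), that of Hist2h2be -0.02 (-0.21 to 0.18), that of H3f3a 0.09 (-0.16 to 0.33) and that of H1f0 -0.10 (-0.37 to 0.16); the signs for Hist1h2bc and H3f3a turned with the other scalings. Among the variants, H2afv was the only one whose ages did not overlap, at 8.33, 8.22, 9.23 and 9.64 FPKM in young and 10.99, 10.5, 10.5 and 9.70 in old. Its difference was 0.23 (SE 0.09, adjusted p = 0.207), and 0.08 to 0.10 with the other scalings.

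Of the 16 members not tested, 12 were clustered and 4 were variants, and none had more than 19 fragments over all 8 libraries. The 5 genes H1fnt, Hist1h2aa, Hist1h2an, H2afb1 and H2afb2 were listed at 0 in every library. Hist1h1t, a testis linker histone gene, had 6 fragments in young and 1 in old libraries.

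The clustered genes with a mean under 1 FPKM were followed as a sum beside the cell division genes. These 38 genes summed to 9.74, 11.9, 17.5 and 13.1 FPKM in the young libraries and 7.79, 10.6, 11.9 and 10.6 in the old. Young replicate 3 was highest and old replicate 1 lowest, and the ages overlapped. Without Hist3h2ba the means were 11.4 ± 3.43 FPKM in young and 9.93 ± 1.83 in old. Of the 36 of these genes with any fragment, 9 were highest in young replicate 3 and 6 in young replicate 4, the next most. Young replicate 3 was also the deepest library, at 20429604 fragments, and the share over all genes was not computed.

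A list of 20 mitosis genes had the same highest library. It summed to 8.28, 13.9, 31.4 and 16.6 FPKM in the young libraries and 6.38, 15.2, 12.8 and 6.28 in the old. None of the 20 was called by limma. The difference was below 0 for 19 of them, while it was above 0 for 16446 of all 23498 genes tested. The list's median was -0.88. At an unadjusted p under 0.05, 2 were lower, beside 3.79% of all genes, and voom called 2 lower, beside 1.51%. The 20 genes were read from the same libraries and are not separate observations. Mki67, the proliferation marker, had 0.567, 1.04, 3.99 and 1.27 FPKM in young and 0.204, 1.08, 0.908 and 0.267 in old (adjusted p = 0.311). Kif11, a spindle motor, had a difference of -1.44 (adjusted p = 0.108) and Ccnb1, the mitotic cyclin B1, one of -1.18 (adjusted p = 0.149). Of 28 DNA replication genes limma called none, and the list's median was -0.01. At an unadjusted p under 0.05, 2 were higher and 1 lower, beside 18.0% and 3.79% of all genes. Voom called Pold1 higher and Mcm2 lower (adjusted p = 0.0461 for each), beside 6.07% and 1.51% of all genes. Mcm2, a subunit of the replicative helicase, was at -0.48 (adjusted p = 0.129) and Pold1, the DNA polymerase delta catalytic subunit, at 0.39 (adjusted p = 0.0673); the ages did not overlap for either. Without young replicate 3, the difference of Hist3h2ba was -2.20 (adjusted p = 0.0373).

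**Figure D5:**
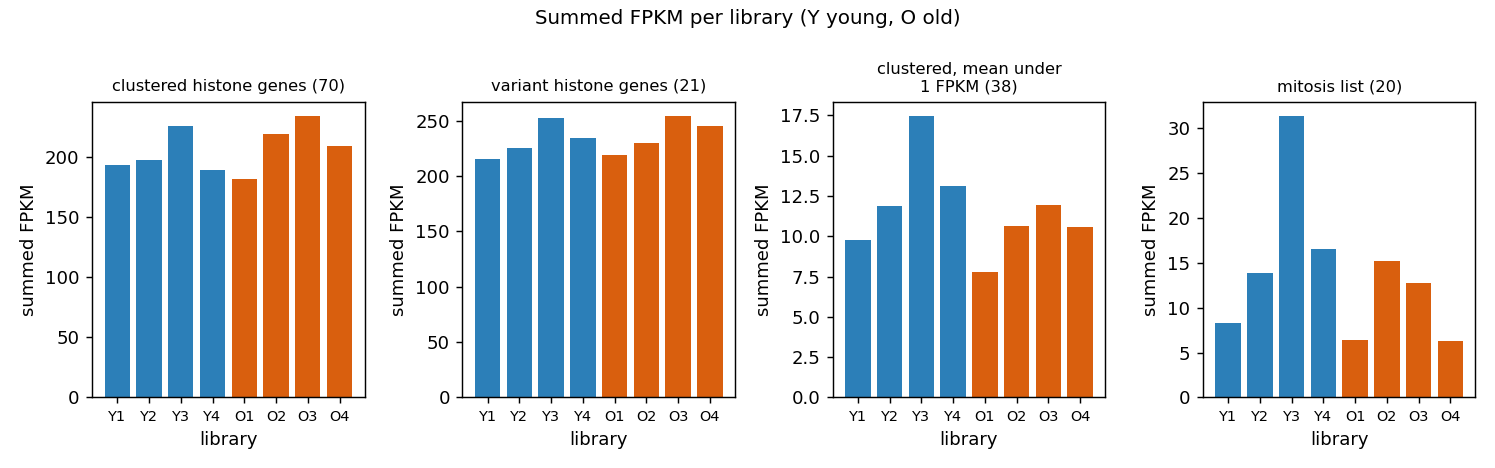
Summed FPKM in each library (Y young, O old) of the 70 clustered genes, the 21 variants, the 38 clustered genes with a mean under 1 FPKM and the 20 mitosis genes, with bars from 0. Young replicate 3 is highest for the last 2 sums, at 17.5 and 31.4 FPKM, and the ages overlap in all 4.

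The genes that make or bind the stem-loop end did not pass the threshold either. Slbp had 2.03 ± 0.411 FPKM in young and 1.80 ± 0.322 in old (-0.16, adjusted p = 0.671). Of the 15 genes of histone mRNA 3′ end formation and turnover, 14 were tested and limma called none, with a median of 0.12. At an unadjusted p under 0.05, 1 was higher, beside 18.0% of all genes. Lsm10, a protein of the U7 particle that cuts histone pre-mRNA, came closest, at 2.84, 3.81, 2.44 and 2.90 FPKM in young and 5.07, 4.42, 5.01 and 4.55 in old (0.67, adjusted p = 0.0577, and 0.0305 by voom). Its partner Lsm11 had 0.388 ± 0.0924 and 0.496 ± 0.0187 FPKM (adjusted p = 0.274). None of 18 histone chaperones was called by limma or voom, and their median was 0.05. At an unadjusted p under 0.05, 1 was higher, beside 18.0% of all genes. The H3.3 chaperone Daxx was at 0.37 (adjusted p = 0.205) and the H3-H4 chaperone Asf1a at 0.25 (adjusted p = 0.249).

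RNAs that lack a poly(A) tail were examined because they share that feature with stem-loop histone mRNAs. Of 12 such RNAs, 10 were tested and none was called by limma or voom or had an unadjusted p under 0.05, with a median of 0.31. They summed to 102 to 165 FPKM in young and 104 to 210 in old libraries. Terc, the telomerase RNA, had 0.288 ± 0.268 and 0.542 ± 0.219 FPKM (adjusted p = 0.379). The genes at the ribosomal RNA repeat, Gm42418, AY036118 and Rn18s-rs5, had differences between -0.07 and -0.06 with none called. The route by which these RNAs entered the libraries was not tested. Whether the histone fragments came from tailed RNA or from RNA without a tail was not tested.

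Marker genes of other cell types differed between the ages in the same libraries. Of 10 macrophage genes, limma called 3 higher in old pituitary (C1qb, Fcgr3 and Lyz2), beside 1.86% of all genes. By voom 9 were called higher, beside 6.07% of all genes. Every old library lay above every young one for 9, beside 13.4% of all genes. The list summed to 36.6 to 61.6 FPKM in young and 79.0 to 105 in old, with no macrophage gene at 0. Its median difference was 0.90. Of 9 lymphocyte genes, 5 were tested, and limma called 1 higher, the antibody joining chain gene Jchain. Voom called 2 higher and 1 lower, beside 6.07% and 1.51% of all genes. The list summed to 2.14 to 3.48 FPKM in young and 4.26 to 5.82 in old. Cd3g, Cd3e, Cd8a, Ms4a1 and Nkg7 were at 0 in at least 1 young library. The median over the 5 lymphocyte genes was 1.21. Cd79b, a B cell receptor gene, went the other way, at -0.70 (adjusted p = 0.0671 by limma and 0.0484 by voom). Of 7 hormone genes, Gh, the growth hormone gene, fell by 1.36 on the log2 scale (adjusted p = 0.00765) and Lhb fell by 0.76 (adjusted p = 0.0440). The other 5 hormone genes did not pass and had differences above 0, up to 0.95 for Fshb (adjusted p = 0.303), and the list's median was 0.07. None of 8 endothelial or 5 red blood cell genes was called by limma or voom or had an unadjusted p under 0.05, with medians of 0.10 and 0.84. The part of these cell types in the fall of Hist3h2ba was not tested.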

How the data were processed

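RNA of whole pituitary, poly(A) RNA per the labels, was sequenced from 4 young and 4 old C57BL/6 samples. By the submitters' processing notes and the methods of the study, the authors aligned reads with STAR (version 2.6.1a) to GRCm38, counted them per Ensembl gene with featureCounts and computed FPKM with edgeR (version 3.28.1); the deposited values are FPKM in 49585 rows per library. The Ensembl release, the strand setting and the treatment of reads that match several genes were not given in the sources used here.

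Genes averaging 0.1 FPKM or more were tested with limma (version 3.58.1, R 4.3.3) on log2(FPKM + 0.1) with age as the term, and Benjamini-Hochberg adjusted p under 0.05 was the threshold; fold changes on this scale understate changes of low genes. The method was tested on simulated fragments with known fold changes and an assumed spread. These did not include differences in scaling between libraries. Fragments were computed back as FPKM times length times library total, with GENCODE M21 exon lengths or, for 24 members, the smallest length giving whole numbers; 91.1% to 91.9% of low values were whole within 0.01 fragments, and the total was 15042321 to 20429604 per library, which limits low genes to a few fragments. The members were matched by symbol, and all 91 were found in GENCODE M21. Lists of other genes were chosen for their roles, and 1 marker gene is not reported here. The members, lists and tests were chosen with earlier results of these data known. Named were variants averaging 1 FPKM or more, the 10 highest clustered genes, every member called, the 5 clustered genes with the smallest p in each direction, up to 4 genes per other list, and Slbp, Mki67 and the ribosomal RNA repeat genes. Trim17, Trim11, Rnf187, Hist3h2a and Hist3h2bb-ps as neighbours, and Hist1h1t, Hist2h2aa1 and the genes at 0, were named after their values were seen. Alternatives were other pseudocounts, filters, scalings and variance models, voom, a replicate block, and each library left out. Each library counted as 1 replicate. With genes pooled, no pair of libraries of an age agreed within sampling noise (chi-square per degree of freedom 9.01 to 24.1). This does not show whether the libraries came from separate animals.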

Additional observations from a re-analysis of the deposited data

Results flagged for a closer look

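In 78 groups of 4 libraries (the named histone genes and the summed histone groups at each age), 5 had 1 library that stood apart from the other 3 by Dixon's criterion, which chance gives in about 1 of 20 groups. H2afz was lowest in old replicate 1, at 32.8 FPKM, against 35.9 in the nearest of the others. H2afy2 was highest in old replicate 3, at 12.5 FPKM, against 8.02. The clustered H2A genes summed to 26.9 FPKM in young replicate 1, against 32.7 in the nearest, and to 36.4 FPKM in old replicate 3, against 30.1. The clustered H2B genes summed to 80.9 FPKM in old replicate 1, against 99.1. No library stood apart in more than 2 of these groups.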

How the results depend on the processing

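Hist3h2ba kept its direction under every alternative and its call under all but 2. It was not tested with a filter at a mean of 1 FPKM, which leaves 0 clustered genes called, and the cause is its mean of 0.996 FPKM. Leaving out each library in turn gave differences of -2.30 to -2.001 and adjusted p of 0.0148 to 0.0373 for it, with 0 variants called and 1 or 2 clustered genes, the second being Hist1h4h without old replicate 4 (0.95, adjusted p = 0.0332). The replicate numbers do not pair the libraries: deviations of same-numbered young and old libraries correlated at 0.037, -0.037, -0.0045 and 0.0064. With a replicate block Hist3h2ba had an adjusted p of 0.125 and 0 clustered genes were called, and over all genes 4 were higher and 0 lower; not every library correlated best with its own number.

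Counts over all genes, 436 higher and 111 lower, moved more. Genes called higher were 689 with a pseudocount of 1, 263 with no filter, 796 with a mean of at least 1 FPKM, 705 with a mean-variance trend and 1426 with voom (354 lower). With median-of-ratios scaling, upper-quartile scaling and scaling without the hormone and ribosomal RNA repeat genes they were 208, 211 and 213 higher against 215, 204 and 187 lower. Leaving out libraries gave 64 to 327 higher and 21 to 163 lower. These 3 scalings took the log2 ratio of summed clustered FPKM from 0.07 to -0.089, -0.083 and -0.0698, and that of the variants from 0.03 to -0.12, -0.11 and -0.10; the cause was not tested. In the same order of scalings, the sign also turned for H2afj (-0.027, -0.022, -0.011), H2afy (-0.085, -0.079, -0.068), H2afz (-0.0083, -0.0029), H3f3a (-0.062, -0.056, -0.045), Hist1h1c (-0.077, -0.072, -0.061), Hist1h2bc (-0.11, -0.11, -0.094), Hist1h4k (-0.063, -0.058, -0.047), Hist2h2aa2 (-0.15, -0.14, -0.13), none of them called; H2afz gave only the first 2. Leaving out libraries turned the sign within the range given for H2afy (-0.041 to 0.12), H3f3a-ps2 (-0.036 to 0.22), H3f3b (-0.088 to 0.082), Hist1h2bc (-0.0061 to 0.12), Hist1h4k (-0.11 to 0.22), Hist2h2aa2 (-0.12 to 0.10), Hist2h2be (-0.037 to 0.012). Depth limits the weak members: the 16 untested genes had at most 19 fragments each.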
